A study of Oryza sativa Japonica Group with 59 samples.

Results

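The genes described here are the 200 of 55986 features in the files whose transcripts increased most strongly from egg to zygote in wild type (WT) rice. They were chosen on TPM, a transcript level scaled to gene length and to the sum of each library, from the means of the WT egg and WT zygote libraries. A gene needed a mean of 10 TPM or more in WT zygote and a ratio (zygote + 1)/(egg + 1) of 4 or more, and the 200 genes with the highest ratio were kept. In all, 10732 genes reached 10 TPM in WT zygote and 217 passed both limits. The difference between WT egg and WT zygote is therefore fixed by the choice and is given only as a description. Just inside the limit were LOC_Os04g56995 (ratio 4.20), LOC_Os05g02630 (4.20) and LOC_Os11g35090 (4.19), and just outside it were LOC_Os02g10020 (4.19), LOC_Os03g08940 (4.18) and LOC_Os05g37030 (4.15).

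All plants were of the rice variety Zhonghua11. WT plants had been regenerated from tissue culture, and *cmt3a* and *cmt3b* plants carried CRISPR/Cas9 mutations in the chromomethylase genes CMT3a or CMT3b, from 2 independent lines each that no longer held Cas9. Which line gave which library is not stated. Eggs came from florets that had not been pollinated, and zygotes were collected 6 to 8 h after fertilization by the labels, or about 6.5 h after pollination by the methods. RNA-seq libraries were used from WT egg (3), zygote (3), meiocyte (3), unicellular microspore (3) and sperm (2), from *cmt3b* egg (2), zygote (3), meiocyte (3) and sperm (3), and from *cmt3a* egg (2). The *cmt3a* plants were infertile, and no *cmt3a* zygote was analysed here. The 2 files of WT sperm agreed within counting noise (chi-square per degree of freedom 0.240, against 1.37 to 6.73 in the 23 other pairs of libraries of a group) and were counted as 1 sample. Nothing states that the libraries of a group came from separate plants, and SDs and p-values cover only the spread between them, which was small (biological coefficient of variation 2.39% to 4.65%).

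Total counts per library were between 9240046 and 25610860. CMT3b, the gene disrupted in *cmt3b*, was at 1.35 to 1.46 TPM in WT egg and at 0 and 0.0186 TPM in *cmt3b* egg, and it was also low in *cmt3a* egg (0.0799 and 0.225 TPM). The other *cmt3b* groups kept CMT3b reads: it was at 0.828 to 1.03 TPM in *cmt3b* zygote (1.82 to 2.22 TPM in WT), 1.34 to 1.53 TPM in *cmt3b* meiocyte (6.14 to 7.95 TPM in WT) and 0.718 to 1.43 TPM in *cmt3b* sperm (7.68 and 7.85 TPM in WT). The most abundant 10 genes took 18.2% and 20.3% of the counts of the *cmt3a* egg libraries, against 5.36% to 5.82% in the other egg libraries. The 16 genes that the study's tables annotate to photosynthesis, none of which is among the 200, had a summed level of 433 to 455 TPM in WT egg, 692 to 747 TPM in *cmt3b* egg and 2438 to 2751 TPM in *cmt3a* egg. Their sum was 167 to 192 TPM in WT zygote, 374 to 523 TPM in *cmt3b* zygote, 450 to 470 TPM in WT sperm and 10778 to 11527 TPM in *cmt3b* sperm. All 16 had counts in every group, except 1 that was at 0 in WT sperm. rbcS, the small subunit of Rubisco and a marker of green tissue, was at 0.361, 66.0 and 29.9 TPM in the 3 *cmt3b* zygote libraries and at 4.66 to 6.81 TPM in WT zygote. The part of these differences in the results below was not tested. The cell types were not checked against defining markers, because the gene tables used here annotate none of the meiocyte, sperm or zygote markers chosen.

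In flowering plants the egg cell is arrested and carries stored transcripts, and fertilization is followed by a wave of new transcription from the zygotic genome. In the rice zygote this wave is known to begin within hours, ahead of the first division, and genes for DNA replication, chromatin and the cell cycle are among its textbook members. Core histones package newly replicated DNA into nucleosomes, and DNA methyltransferases copy methylation marks onto it. Chromomethylases maintain methylation at CHG sites (H stands for A, C or T), which in plants mostly mark transposable elements.

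Between WT egg and WT zygote all 200 genes were called higher, against 13.1% of the 21265 genes tested (9.64% were lower), as the choice makes them, and nothing is read from this. For 1 gene the libraries of the 2 cells overlapped. LOC_Os07g33915 was at 9.28, 3.76 and 3.23 TPM in WT egg and at 5.23, 7.18 and 100.3 TPM in WT zygote, so that 1 library brought it in. The 200 genes had ratios between 4.19 and 27.0, with a median of 5.92. Their levels had a median of 6.05 TPM in WT egg and 39.8 TPM in WT zygote. Together they took 0.382% to 0.397% of the counts in the WT egg libraries and 3.53% to 3.71% in the WT zygote libraries. The study's gene tables annotate 53 of them, and 147 are known here only by their identifiers. Of lists drawn by key words from these tables, the 200 genes held 23 of 23 core histone genes, 6 of 12 genes for kinesins and microtubule proteins, 4 of 7 genes for chromatin and chromosome condensation, 7 of 47 transcription factor genes, 1 of 2 DNA replication genes and 1 of 4 cell cycle genes. They held 0 of 65 genes for ribosomes and translation and 0 of 40 transposon-related genes. These lists hold only genes of the study's tables, so the 147 others could not be counted in any of them. Of the 83 zygotic genes that the study listed as raised in *cmt3b* egg, 51 are among the 200. The study chose those 83 on these libraries, among genes higher in zygote than in egg, and most histone annotations come from that same list. Neither is therefore independent evidence of a direction or of a place among the 200.

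The 5 highest ratios belonged to genes without a symbol in the study's tables, called unnamed below, and their levels in the other cells differed widely. Such genes may have names in sources not used here. LOC_Os09g27330 was at 3.19, 3.34 and 4.66 TPM in the 3 WT egg libraries and at 126, 132 and 123 TPM in WT zygote (ratio 27.0). It was also at 62.5 to 74.7 TPM in WT meiocyte and at only 2.52 and 2.53 TPM in the sperm files. LOC_Os10g36360 (ratio 25.3) had no count in any sperm library. LOC_Os08g01400 (22.2) stayed at 4.14 TPM or less in every library other than those of the zygotes, where it was at 95.1 to 114 TPM. LOC_Os04g39980 (21.8) was at 644 and 646 TPM in the WT sperm files, against 65.7 to 68.0 TPM in WT zygote. LOC_Os02g01540 (19.8) was higher in WT meiocyte, at 284 to 322 TPM, than in WT zygote, at 173 to 176 TPM.

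**Figure D1:**
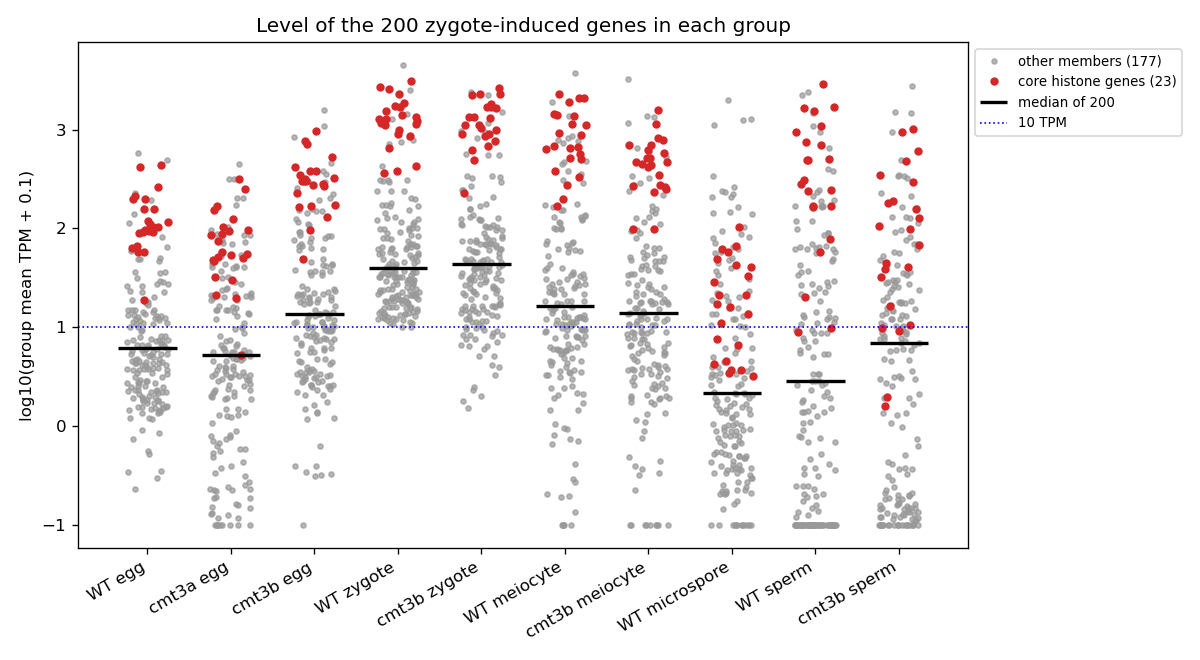
Level of each of the 200 genes in 10 groups, as log10 of the group mean TPM plus 0.1, with the 23 core histone genes in red, the other 177 in grey, black bars at the median of the 200 and a dotted line at 10 TPM. The medians were 6.05 TPM in WT egg, 13.6 TPM in *cmt3b* egg, 39.8 TPM in WT zygote, 16.5 TPM in WT meiocyte, 2.05 TPM in WT microspore and 2.74 TPM in WT sperm.

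Many of these genes also had transcripts in the male lineage. Their shares were below those of all genes at 10 TPM or more in WT zygote. In WT meiocyte, the cell that enters meiosis, 125 of the 200 were at 10 TPM or more and 181 at 1 TPM or more. In WT microspore the counts were 67 and 122, and in WT sperm 80 and 118. Among all 10732 genes at 10 TPM or more in WT zygote, 76.9% reached 10 TPM in meiocyte, 67% in microspore and 44.8% in sperm, against 62.5%, 33.5% and 40% of the 200 genes. At 1 TPM or more the shares were 98.6%, 94.2% and 73.7% of the 10732, against 90.5%, 61% and 59% of the 200. These shares are given as a description without a test. Of the 5 WT cells the level was highest in zygote for 137 genes (68.5%), in sperm for 24 (12%), in microspore for 20 (10%) and in meiocyte for 19 (9.5%), against 17.9%, 18.2%, 15.8% and 9.06% of the 10732. The choice fixes that it was highest in egg for 0 of the 200 (39.0% of the 10732) and favours the zygote. At the other end, 51 genes had no count in either sperm file, where 3 counts correspond to 0.159 and 0.167 CPM (counts scaled to the library total), so that their transcripts were not detectable at this depth.

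From meiocyte to microspore the 200 genes mostly fell. By edgeR's quasi-likelihood test on counts, where a call needed an adjusted p below 0.01 together with more than a 2-fold difference, 139 of the 200 fell and 27 rose, and 184 had enough counts to be tested. Over all 23884 genes tested in this comparison, 32.3% fell and 29.7% rose (62% in all). As a median, the log2 ratio was -2.94 over the 200 genes and -0.06 over all genes tested. All 23 core histone genes fell, by log2 fold changes of -8.19 (H3R-11) to -3.53 (H4, LOC_Os07g36500). LOC_Os11g26790, an exception, was at 33.5 to 36.3 TPM in meiocyte and 1246 to 1310 TPM in microspore (log2 fold change 5.30).

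The highest levels in WT sperm belonged to a histone gene, an arabinogalactan protein gene and an unnamed gene. LOC_Os01g06010, annotated as a core histone, was at 2936 and 2883 TPM in the sperm files, 2188 to 2389 TPM in WT zygote and 254 to 264 TPM in WT egg. AGP20 (LOC_Os02g16500), of a family of cell surface glycoproteins, was at 2404 and 2400 TPM in sperm and at 3583 to 3780 TPM in WT meiocyte, the highest meiocyte level among the 200. LOC_Os06g44310 was at 2227 and 2243 TPM in sperm and at 304 to 312 TPM in WT zygote. In meiocyte, LOC_Os01g06010 (2271 to 2313 TPM) and the histone gene LOC_Os03g02780 (1833 to 2198 TPM) came after AGP20, and their ranges did not overlap with each other. MET1b (LOC_Os07g08500), a methyltransferase of the type that maintains CG methylation, was named after its values were seen: it was at 940 and 948 TPM in sperm, 24.2 to 24.5 TPM in meiocyte, 9.98 to 11.3 TPM in microspore, 6.49 to 7.95 TPM in egg and 67.7 to 71.3 TPM in zygote.

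**Figure D2:**
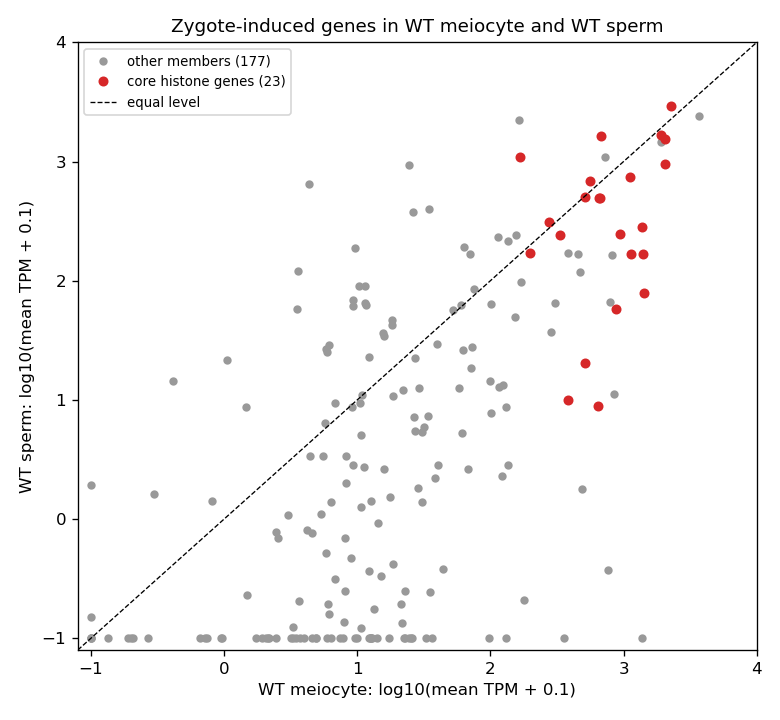
Mean level of the 200 genes in WT meiocyte (horizontal axis) and WT sperm (vertical axis), as log10 of TPM plus 0.1, with the 23 core histone genes in red and a dashed line at equal levels. The 51 genes with no sperm count lie at the bottom edge, and the histone genes lie between 167 and 2288 TPM in meiocyte and between 8.86 and 2910 TPM in sperm.

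Most of the 200 genes were higher in the unfertilized *cmt3b* egg than in WT egg, where they had been chosen as low. Relative to WT egg, 129 of the 200 were upregulated and 9 downregulated, with 197 tested. Over all 21466 genes tested, 14.3% were upregulated and 8.43% downregulated. The median log2 ratio was 1.26 over the 200 genes and -0.01 over all genes tested, and 178 of the 200 ratios were above 0. Fold changes were taken from counts scaled by TMM, which centres most genes at no change: without it, on library totals, the median of all genes in this comparison moved to -0.24 and 105 of the 200 genes were upregulated and 9 downregulated, against 10.9% and 13.6% of all genes tested, so that the balance of all genes turned. In TPM the 12767 genes at 10 TPM or more in either egg had a median log2 ratio of -0.44 against 0.73 for the 200 genes. The share of counts on the 200 genes was 1.12% and 1.15% in *cmt3b* egg. The WT egg libraries also served to choose the genes: when they were chosen on replicate 1 of WT egg and WT zygote alone (200 genes, 185 of them shared), and *cmt3b* egg was compared with the WT egg replicates 2 and 3, 128 were upregulated and 10 downregulated. The WT egg replicates were close to each other, so this split does not remove what they share. The choice as low in WT egg favours a higher call, and this holds also for the p-values of single genes against WT egg below. In pooled cells like these, a change in the number of cells of a kind and a change in transcripts per cell cannot be told apart.

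The level reached in *cmt3b* egg was still below that of the zygote for most genes. Mean TPM in *cmt3b* egg was 24.7% of that in WT zygote at the median, with quartiles of 18.1% and 41.4%. Both *cmt3b* egg libraries lay below every WT zygote library for 172 genes and above every one for 23, against 52.2% and 35.8% of the 10732 genes at 10 TPM or more in WT zygote. The genes were chosen as high in these WT zygote libraries, and nothing is read from this difference. In *cmt3b* egg 118 genes (59%) were at 10 TPM or more, against 78 (39%) in WT egg. Of the 10732 genes, 88.0% were at this level in *cmt3b* egg and 94.3% in WT egg. The choice holds down the number in WT egg, and nothing is read from these shares.

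The core histone genes of the key word list were higher in *cmt3b* egg. Most are annotated through the study's list of genes raised in *cmt3b* egg on these libraries, so their direction is not independent evidence. All 23 were upregulated (22 on library totals, where LOC_Os05g02300 was at 0.97), by log2 fold changes between 1.20 (LOC_Os05g02300) and 2.22 (LOC_Os06g06510), and their summed level was 7731 and 7995 TPM against 3261 to 3447 TPM in WT egg. H3R-11 (LOC_Os06g06460), a histone H3 gene, was at 100.01, 102 and 107 TPM in WT egg and at 329 and 317 TPM in *cmt3b* egg. These ranges did not overlap (log2 fold change 2.09 ± 0.04 SE, edgeR adjusted p = 1.3e-29). H2B.7 (LOC_Os01g05970), a histone H2B gene by its symbol although the tables describe it as an F-box protein, was at 436 to 449 TPM in WT egg and at 765 and 779 TPM in *cmt3b* egg (log2 fold change 1.25 ± 0.03 SE, edgeR adjusted p = 3.2e-25). H3R-21 (LOC_Os11g05730), another H3 gene, was upregulated by 1.27 and the H4 gene LOC_Os07g36500 by 1.81 on the log2 scale. Histone genes are near-identical copies of each other, and how reads that match several copies were counted is not given in the sources used here, so the values of single histone genes are uncertain. On chromosome 6, 4 of the 200 genes have identifiers in close sequence (LOC_Os06g06460, LOC_Os06g06480, LOC_Os06g06490 and LOC_Os06g06510), and the strand setting of the counting is not given either.

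**Figure D3:**
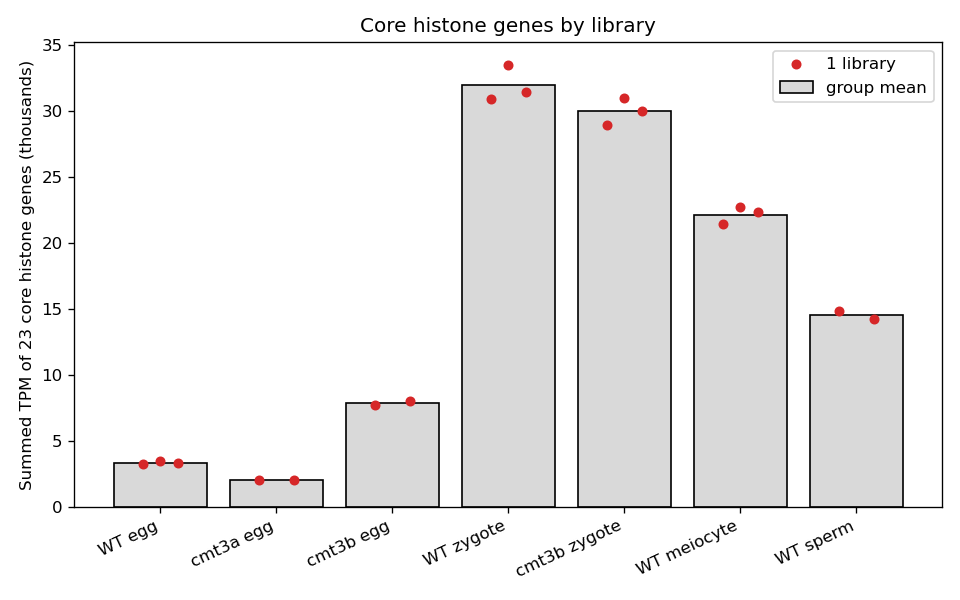
Summed TPM of the 23 core histone genes, in units of 1000 TPM, in 7 groups, with bars at the group mean and a point for each library. The *cmt3b* egg libraries (7731 and 7995 TPM) lie above the WT egg libraries (3261 to 3447 TPM) and the *cmt3a* egg libraries (1996 and 2049 TPM) below them, while the zygote libraries of both genotypes lie between 28982 and 33555 TPM.

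Other annotated genes moved in the same direction in *cmt3b* egg. Of the 53 genes in the study's tables, 51 are on its list of genes raised in *cmt3b* egg, and 52 were upregulated. The direction of annotated genes is therefore not independent evidence. All 4 chromatin genes among the 200 were upregulated: HMGB (LOC_Os08g01100) and LOC_Os02g15810, of the HMG proteins that bend DNA, by log2 fold changes of 1.37 and 1.74, and the methyltransferase genes MET1b and CMT3a. Of the 3 other genes of that list, 2 rose and 1 fell. CMT3a (LOC_Os10g01570) was at 12.7, 11.8 and 13.8 TPM in WT egg and at 16.2 and 21.3 TPM in *cmt3b* egg, and it sat at the fold limit (log2 fold change 1.00 ± 0.10 SE, edgeR adjusted p = 1.3e-10): without WT egg replicate 1, WT egg replicate 2 or *cmt3b* egg replicate 2, without the filter on low counts, or on library totals it was not called, with log2 fold changes between 0.76 and 0.98. All 6 kinesin and microtubule genes among the 200 were upregulated, as were 4 of the 6 others of that list. TOP2 (LOC_Os02g47150), a topoisomerase that untangles DNA, was at 21.7 to 23.4 TPM in WT egg and 43.2 and 44.0 TPM in *cmt3b* egg (log2 fold change 1.40 ± 0.04 SE, edgeR adjusted p = 3.7e-24). PUB63 (LOC_Os06g06490), with the U-box domain of ubiquitin ligases, rose by 1.82, AGP20 by 2.33 and the glutaredoxin gene GRX6 (LOC_Os01g47760), of an enzyme family that reduces disulfides, by 2.91 on the log2 scale. Of the 147 genes in none of the study's tables, 77 were upregulated and 9 downregulated.

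Among called genes whose higher group averaged at least 10 CPM (depth-scaled counts) and whose libraries did not overlap, the largest rises in *cmt3b* egg were seen in unnamed genes, and they exceeded the WT zygote level. LOC_Os06g48160 was at 1.87, 2.29 and 2.46 TPM in WT egg, 154 and 158 TPM in *cmt3b* egg and 37.8 to 43.8 TPM in WT zygote (log2 fold change between the eggs 6.60 ± 0.07 SE, edgeR adjusted p = 2.1e-36). LOC_Os02g46210 was at 1.05 to 1.62 TPM in WT egg, 90.6 and 91.7 TPM in *cmt3b* egg and 18.9 to 19.9 TPM in WT zygote. LOC_Os09g27330, the gene with the highest ratio of all, was at 222 and 225 TPM in *cmt3b* egg and rose by 6.34 on the log2 scale. In all 3, the *cmt3b* egg libraries lay above every library of both WT groups. LOC_Os05g02630, just inside the limit of the choice, was at 18.1 to 20.6 TPM in WT egg and 286 and 324 TPM in *cmt3b* egg (log2 fold change 4.44).

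A few genes moved the other way. Under the same 10 CPM minimum the largest falls were those of LOC_Os05g42240, LOC_Os01g64380 and LOC_Os03g61670. LOC_Os05g42240 fell from 13.8 to 15.5 TPM in WT egg to 3.22 and 3.86 TPM in *cmt3b* egg (log2 fold change -1.62 ± 0.17 SE, edgeR adjusted p = 2.8e-10). LOC_Os01g64380 fell by 1.15 and LOC_Os03g61670 by 1.04 on the log2 scale, and the call of the latter was lost without *cmt3b* egg replicate 1 (-0.85). LOC_Os04g56995, at 4.99 to 6.94 TPM in WT egg, had no count in the *cmt3b* or *cmt3a* egg libraries, which makes it at least 9.42-fold lower in *cmt3b* egg when the smallest *cmt3b* library is set at 3 counts. LOC_Os08g01400 was at 2.80 to 4.14 TPM in WT egg and at 0.188 and 0.250 TPM in *cmt3b* egg, where only 2 and 3 counts fell on it. LOC_Os06g33200 had 143, 77 and 134 counts in WT egg and only 1 and 2 in *cmt3b* egg. It was called lower in *cmt3b* egg (log2 fold change -4.98) and in *cmt3a* egg (-6.44).

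The *cmt3a* egg showed a different picture. Relative to WT egg, 48 of the 200 genes were upregulated and 74 downregulated, with 195 tested, and over all 22744 genes tested 19.6% were upregulated and 18.5% downregulated. The share of upregulated genes was near that of all genes, and the share of downregulated genes was higher. On library totals 47 of the 200 were upregulated and 86 downregulated, against 15.1% and 25.9% of all genes tested. Their median log2 ratio was -0.47 over the 200 genes and 0.01 over all genes tested. The 200 genes took 0.363% and 0.378% of the counts. Both egg comparisons share the WT egg libraries, and their values are set side by side below without a test of their likeness.

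None of the 23 core histone genes was upregulated in *cmt3a* egg, and 5 were downregulated (9 on library totals, where the median of all genes moved to -0.33). Their log2 fold changes lay between -1.93 (LOC_Os03g06670) and 0.80 (LOC_Os08g33100), and their summed level was 1996 and 2049 TPM. H3R-11 was at 50.4 and 44.7 TPM, below every WT egg library, with a log2 fold change of -0.76 that did not pass the fold limit. Of the 4 chromatin genes, CMT3a, the gene disrupted in these plants, was at 4.86 and 4.46 TPM and was downregulated (log2 fold change -1.11 ± 0.11 SE, edgeR adjusted p = 6.9e-08), and the other 3 were not called. Among the 6 kinesin and microtubule genes 3 fell and 1 rose, and of the 6 others of that list 2 fell.

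Under the same 10 CPM minimum, unnamed genes gave the largest differences in *cmt3a* egg in both directions. LOC_Os11g26790 was at 0.281, 0.368 and 0.607 TPM in WT egg, 80.6 and 91.2 TPM in *cmt3a* egg and 20.1 and 21.8 TPM in *cmt3b* egg, and it rose by 8.00 ± 0.13 SE on the log2 scale in *cmt3a* egg (edgeR adjusted p = 2.7e-18). LOC_Os01g58850 was at 0.200 to 0.291 TPM in WT egg, 33.9 and 39.3 TPM in *cmt3a* egg and 9.45 and 9.91 TPM in *cmt3b* egg. LOC_Os09g27330 was at 305 and 320 TPM in *cmt3a* egg, above both *cmt3b* egg libraries. All 3 lay above every WT egg library in both mutants.

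The largest falls in *cmt3a* egg under that minimum were in genes that *cmt3b* egg had at or above the WT level. LOC_Os04g15800 was at 11.5 to 13.2 TPM in WT egg, 0.236 and 0.233 TPM in *cmt3a* egg and 15.6 and 17.3 TPM in *cmt3b* egg. It fell by 5.34 on the log2 scale in *cmt3a* egg (SE 0.22, edgeR adjusted p = 7.0e-13). LOC_Os07g47090 fell by 4.47 in *cmt3a* egg and rose by 1.22 in *cmt3b* egg, and LOC_Os05g41390 fell by 3.35 and rose by 1.04. On library totals the rises in *cmt3b* egg were 0.99 for LOC_Os07g47090 and 0.81 for LOC_Os05g41390 and were not called, and that of LOC_Os05g41390 was also lost without the filter on low counts and with the replicate block (1.00 in both).

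A direct comparison of the mutant eggs uses none of the WT libraries on which the 200 genes were chosen. In *cmt3a* egg relative to *cmt3b* egg, 141 of the 200 genes were lower and 16 higher, with 191 tested, whereas over all 21694 genes tested 19.3% were lower and 17.7% higher (37% in all). As a median, the log2 ratio was -1.91 over the 200 genes and 0.02 over all genes tested. The gene groups below are annotated mostly through the study's list of genes raised in *cmt3b* egg, so their direction here is not independent of the *cmt3b* egg libraries. Of the 149 genes outside that list, 93 were lower and 16 higher. All 23 core histone genes were lower in *cmt3a* egg, by log2 fold changes of -4.00 (LOC_Os03g06670) to -1.10 (LOC_Os08g33100). The 4 chromatin genes, 5 of the 6 kinesin and microtubule genes and TOP2 were lower as well. LOC_Os11g26790 and LOC_Os01g58850 were among the 16 that were higher, by 1.95 and 1.84 on the log2 scale.

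**Figure D4:**
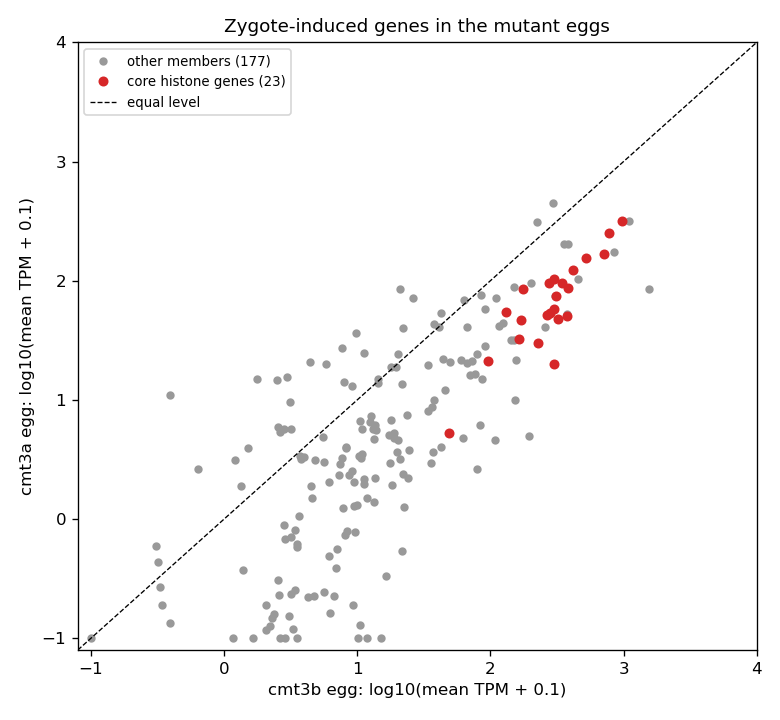
Mean level of the 200 genes in *cmt3b* egg (horizontal axis) and *cmt3a* egg (vertical axis), as log10 of TPM plus 0.1, with the 23 core histone genes in red and a dashed line at equal levels. The histone genes lie below the line, at 49.0 to 971 TPM in *cmt3b* egg and 5.14 to 314 TPM in *cmt3a* egg, and 141 of the 200 genes were called lower in *cmt3a* egg.

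In the *cmt3b* zygote most of the 200 genes were within 2-fold of the WT level, with single genes far from it. Relative to WT zygote, 22 were upregulated and 42 downregulated, with all 200 tested, and over all 20638 genes tested 8.67% were upregulated and 8.08% downregulated. The number upregulated was near the share of all genes and the number downregulated was above it. The median log2 ratio was -0.31 over the 200 genes and 0.00 over all genes tested. WT zygote also served to choose the genes, and for genes chosen on replicate 1 and compared with WT replicates 2 and 3, 23 were upregulated and 38 downregulated. The WT zygote replicates were close to each other, so this split does not remove what they share. Because the genes were chosen as high in WT zygote, nothing is read from the share that was downregulated. The 200 genes took 3.40% to 3.46% of the counts. In *cmt3b* zygote 174 of them (87%) were at 10 TPM or more, against 91.9% of the 10732 genes at this level in WT zygote.

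Few genes of the annotated groups were called between the zygotes. Of the 23 core histone genes 22 were not called and LOC_Os03g06670, named after its values were seen, was downregulated: it was at 1336 to 1453 TPM in WT zygote and 609 to 621 TPM in *cmt3b* zygote (log2 fold change -1.19 ± 0.05 SE, edgeR adjusted p = 6.2e-17). None of the 12 kinesin and microtubule genes and none of the 7 chromatin genes was called. CMT3a was at 112 to 118 TPM in WT zygote and 99.7 to 108 TPM in *cmt3b* zygote, with ranges that did not overlap and a log2 fold change of -0.16. The H4 gene LOC_Os07g36500 was at 395, 459 and 429 TPM in WT and 733, 1010.4 and 834 TPM in *cmt3b* zygote. The groups did not overlap, and the log2 fold change of 0.99 was just under the fold limit, which it passed without WT zygote replicate 2 (1.05) or without *cmt3b* zygote replicate 1 (1.10).

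Of the genes raised in *cmt3b* zygote, 18 of 22 had also been raised in *cmt3b* egg, a comparison without shared libraries, against 129 of all 200. Over all genes tested in both comparisons, 667 of the 1634 raised in *cmt3b* zygote (40.8%) had been raised in *cmt3b* egg, against 12.5% of all 20121. LOC_Os02g48710 was at 38.3 to 39.4 TPM in WT zygote and 562, 614 and 486 TPM in *cmt3b* zygote, and the groups did not overlap (log2 fold change 3.83 ± 0.07 SE, edgeR adjusted p = 1.6e-23). LOC_Os01g58850 was at 18.2 to 20.7 TPM in WT and 224 to 262 TPM in *cmt3b* zygote, and LOC_Os09g15670 at 17.8 to 20.6 TPM and 237 to 245 TPM, with log2 fold changes of 3.68 and 3.67. LOC_Os09g27330 was at 918 to 1022 TPM in *cmt3b* zygote, against 123 to 132 TPM in WT zygote.

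Of the 42 genes that were lower in *cmt3b* zygote, 27 had been raised in *cmt3b* egg, a share close to the 129 of all 200. Over the 20121 genes tested in both comparisons 0.929% were raised in *cmt3b* egg and lower in *cmt3b* zygote, 187 of the 1534 that were lower in zygote (12.2%), which is again close to the 12.5% raised in egg overall. LOC_Os06g48160, with 154 and 158 TPM in *cmt3b* egg, was at 5.25, 4.83 and 5.08 TPM in *cmt3b* zygote against 37.8 to 43.8 TPM in WT zygote (log2 fold change -3.02 ± 0.08 SE, edgeR adjusted p = 4.8e-20). LOC_Os01g64380 was at 285 to 319 TPM in WT zygote and 64.8 to 77.1 TPM in *cmt3b* zygote, and it was 1 of 2 genes called lower in both *cmt3b* cells. LOC_Os03g10710 was at 114 to 121 TPM in WT zygote and 26.6 to 27.5 TPM in *cmt3b* zygote (log2 fold change -2.12 ± 0.08 SE, edgeR adjusted p = 3.4e-17), while in the eggs it did not pass the test (-0.25 in *cmt3b*, -0.27 in *cmt3a*).

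The rise from egg to zygote was also present within *cmt3b*, in libraries that the choice did not use. From *cmt3b* egg to *cmt3b* zygote 147 of the 200 genes rose and 16 fell, with 198 tested, and over all 20727 genes tested 9.39% rose and 12.6% fell. The median log2 ratio was 1.63 with quartiles of 0.90 and 2.30 (0.01 over all genes tested), against the 3.08 of WT that the choice fixed. A log2 ratio above 2 was reached by 66 of the 200 genes. Of the core histone genes 22 of 23 rose, and LOC_Os03g06670 rose by 0.95, under the fold limit. Of the 149 genes outside the study's list of genes raised in *cmt3b* egg, 101 rose and 15 fell. All 4 chromatin genes, all 6 kinesin and microtubule genes and TOP2 rose. CMT3a rose by 2.38 ± 0.09 SE on the log2 scale (edgeR adjusted p = 3.5e-15), and AGP20 did not pass the fold limit (0.39). LOC_Os08g01400 went from 0.188 and 0.250 TPM (2 and 3 counts) to 95.1 to 114 TPM (884 to 1764 counts). Among the 16 genes that fell were LOC_Os06g48160 (-5.01), LOC_Os05g02630 (-1.65) and LOC_Os02g46210 (-1.60), all of which had been above the WT zygote level in *cmt3b* egg. Whether the effect of *cmt3b* differs between egg and zygote was not tested, because that test contains the contrast on which the genes were chosen.

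**Figure D5:**
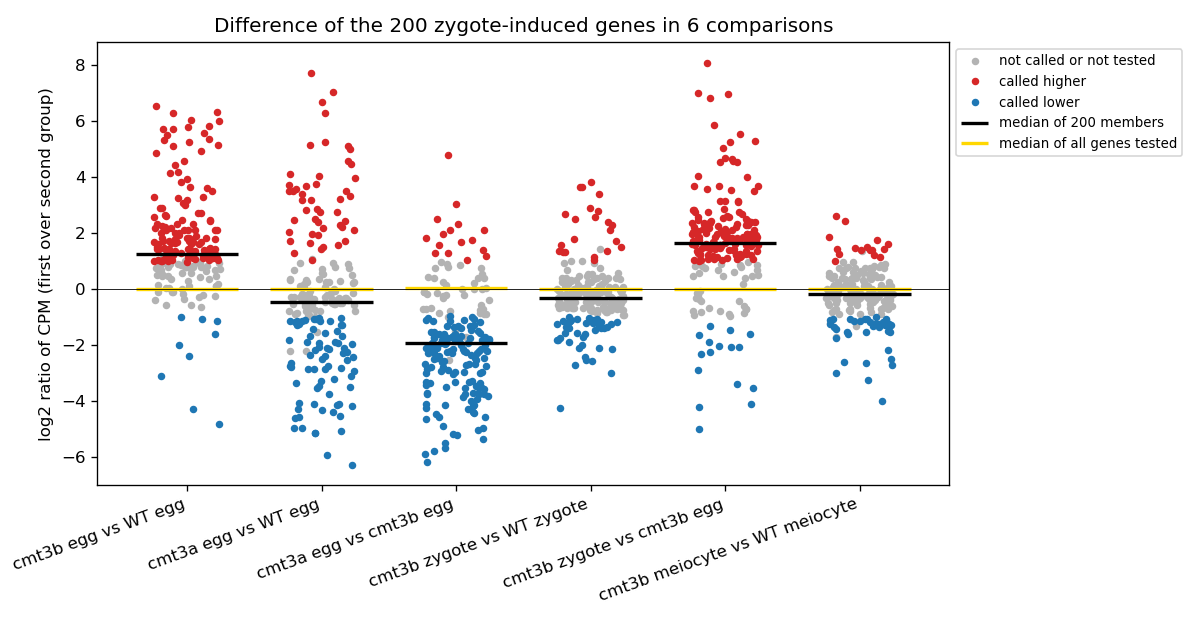
Log2 ratio of CPM for each of the 200 genes in 6 comparisons, first group over second, with called genes in red (higher) and blue (lower), others in grey, black bars at the median of the 200 genes and yellow bars at the median of all genes tested. The medians of the 200 genes were 1.26, -0.47, -1.91, -0.31, 1.63 and -0.18 from left to right, and those of all genes tested lay between -0.01 and 0.02.

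In meiocyte, which had no part in the choice, more of the 200 genes were lower than higher in *cmt3b*. Relative to WT meiocyte 16 of the 200 genes were upregulated and 40 downregulated, with 183 tested, and over all 23192 genes tested 10.7% were upregulated and 7.9% downregulated. On library totals 15 of the 200 were upregulated and 45 downregulated, and all genes leaned the same way, with 8.20% upregulated and 10.5% downregulated. The median log2 ratio was -0.18 over the 200 genes and -0.01 over all genes tested. Of the core histone genes 6 were downregulated and 17 not called (7 were downregulated on library totals, where the median of all genes moved to -0.20). LOC_Os01g06010 was at 2271 to 2313 TPM in WT and 669 to 718 TPM in *cmt3b* meiocyte (log2 fold change -1.51 ± 0.05 SE, edgeR adjusted p = 3.8e-21), and H3R-11 and H2B.7 fell by 1.24 and 1.07 on the log2 scale. Of the 4 chromatin genes CMT3a, MET1b and HMGB fell, and LOC_Os02g15810 rose, from 14.6 to 15.3 TPM in WT to 45.6 to 47.2 TPM in *cmt3b* meiocyte (1.85). CMT3a was at 27.8 to 29.1 TPM in WT and 9.42 to 11.6 TPM in *cmt3b* meiocyte (log2 fold change -1.25).

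Under the 10 CPM minimum, the largest differences in meiocyte were again in unnamed genes. LOC_Os02g09480 was at 7.65, 7.99 and 8.48 TPM in WT and 42.7, 34.7 and 35.9 TPM in *cmt3b* meiocyte (log2 fold change 2.43 ± 0.08 SE, edgeR adjusted p = 8.4e-20). LOC_Os11g26790 was at 33.5 to 36.3 TPM in WT and 1.49 to 1.99 TPM in *cmt3b* meiocyte (-4.06), although it had risen in both mutant eggs. LOC_Os09g30414 was at 21.5 to 23.2 TPM in WT and 1.80 to 2.18 TPM in *cmt3b* meiocyte (-3.29). None of these ranges overlapped.

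Sperm could be compared only without a test, since WT sperm is 1 sample. A gene was counted as different when every *cmt3b* library was over 2-fold to the same side. Of the 146 genes of the 200 with enough counts, 42 were higher (28.8%) and 61 lower (41.8%) in *cmt3b* sperm, and over all 22567 genes compared 35.2% were higher and 32.9% lower (68.1% in all). The median log2 ratio was -0.71 over these 146 genes and 0.05 over all genes compared. The others had too few counts, and 16 of the 200 had no count in any sperm library. None of the core histone genes was higher and 20 of 23 were lower, with a median log2 ratio of -2.03. Scaling mattered here: the median log2 ratio over all genes was 0.05 with TMM, -0.18 with the size factors of DESeq2 and 0.29 on library totals, and the lower histone genes numbered 20, 21 and 18.

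Single genes spanned a wide range in sperm. LOC_Os06g33200 had no count in either WT sperm file and was at 251, 187 and 194 TPM in *cmt3b* sperm, at least 551-fold higher. It was at 151 to 159 TPM in WT zygote, 67.8 to 74.0 TPM in *cmt3b* zygote and 0.310 TPM or less in the egg libraries of both mutants. LOC_Os02g10490 had no count in WT sperm either and was at 12.1 to 13.8 TPM in *cmt3b* sperm, at least 145-fold higher. LOC_Os12g16210 was at 9.34 and 9.36 TPM in the WT files (211 and 201 counts) and had 0, 1 and 1 counts in *cmt3b* sperm. LOC_Os06g48160 was at 13.3 and 13.1 TPM in the WT files and 0.185 to 0.554 TPM in *cmt3b* sperm (log2 ratio -5.10). LOC_Os01g06010, the histone gene with the highest sperm level, was at 874 to 1076 TPM in *cmt3b* sperm (log2 ratio -1.66), MET1b at 156 to 166 TPM (-2.57) and LOC_Os06g44310 at 2682 to 2811 TPM (0.26).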

How the data were processed

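The 27 RNA-seq libraries of 10 groups were used, and 32 bisulfite samples were left out. Per the labels and the methods, the authors trimmed reads with fastp (version 0.20.1), mapped them to the MSU rice genome with HISAT2 and obtained gene counts with featureCounts. The deposited files hold raw counts, FPKM values and TPM values per gene, and the authors made FPKM and TPM from the counts and gene lengths. The methods and the labels name different cDNA kits. Members were taken from the TPM values, and FPKM served as an alternative.

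The quasi-likelihood test of edgeR 4.0.16 (R 4.3.3, limma 3.58.1) was run on the counts of the libraries of each comparison alone, after filterByExpr (minimum count 10) and TMM scaling, with Benjamini-Hochberg adjustment over all genes tested. Calls needed an adjusted p below 0.01 together with more than a 2-fold difference. Log2 ratios over all 200 genes used CPM with a prior count of 2. Bounds set a group at 3 counts in its smallest library. On simulated data, 100 of 100 genes changed 3-fold and 0 of 100 changed 1.5-fold were called in each of 2 comparisons. The changed genes were drawn only among genes with ample counts, so this does not cover those of the 200 with few counts. A 1.5-fold change lies under the 2-fold limit of a call. Alternatives were DESeq2 1.42.0, its size factors, library totals (added after the data were seen), no filter, leaving out each replicate, a replicate block, other prior counts and other forms of the choice. Python 3.11.15 was used for tables and figures.

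The members, the gene lists and the tests were chosen with earlier results of these data known. Genes named are the 5 highest ratios, 3 on each side of the limit, the 3 largest rises and falls called in each mutant egg and in *cmt3b* zygote (mean of 10 CPM or more in the higher group, no overlap between libraries), the 3 highest in WT sperm and in meiocyte, the 2 largest rises and falls in *cmt3b* meiocyte and sperm, the 10 symbol-bearing genes highest in WT zygote, and CMT3a and CMT3b; other genes named were chosen after their values were seen. Symbols and descriptions come from the study's gene tables. The RefSeq gene table matched 0 identifiers, so no promoter or protein sequence is shown.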

Additional observations from a re-analysis of the deposited data

Results flagged for a closer look

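Of the 40 genes named by rule, 20 had a *cmt3b* effect of opposite sign in egg and zygote, with no overlap between *cmt3b* and WT libraries in either cell, close to the rate among all 200 genes, where 103 had such effects. The difference between the cells was not tested, since the WT libraries of both served to choose the genes. The log2 fold changes in *cmt3b* zygote of those that were higher in *cmt3b* egg were -3.02 for LOC_Os06g48160, -2.10 for LOC_Os02g09480, -1.37 for LOC_Os07g47090, -0.75 for H3R-11, -0.66 for LOC_Os04g15800, -0.62 for LOC_Os10g36360, -0.58 for LOC_Os06g44310, -0.52 for LOC_Os02g01540, -0.48 for LOC_Os01g06010, -0.48 for H2B.7, -0.46 for PUB63, -0.45 for LOC_Os05g41390, -0.34 for LOC_Os02g10490, -0.32 for AGP20, -0.29 for LOC_Os12g16210, -0.16 for CMT3a and -0.12 for LOC_Os02g15810. Those of genes lower in *cmt3b* egg were 0.25 for LOC_Os04g56995, 0.28 for LOC_Os05g42240 and 0.40 for LOC_Os03g61670. Of the 103 genes, 98 were higher in *cmt3b* egg and lower in *cmt3b* zygote, and 11 were core histone genes. Over the 20121 genes tested in both cells, 22.3% had opposite effects without overlap and 11.7% were higher in egg and lower in zygote. For 28 of the 200 genes both effects were called (27 of them higher in egg), against 1.22% of the 20121 (0.929% higher in egg). The 200 genes were chosen as low in WT egg and high in WT zygote, so nothing is read from their share.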

How the results depend on the processing

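The numbers of the 200 genes called in the 7 tested comparisons and in sperm, and the numbers of them at 10 or 1 TPM in each group, stayed within 1.5 times of the reported value under every alternative run for them (211 of 212 values, with library totals in place of TMM, added after seeing the data, among the alternatives). The exception was the choice itself: with 5 TPM in place of 1 TPM added to both levels, 97 of the 200 genes were kept, while 0.1 TPM kept 187, FPKM kept 186, TMM-scaled TPM kept 198, and leaving out each WT egg or zygote replicate kept 192 to 196. Over all genes tested, those downregulated in *cmt3b* egg went from 1810 to 2911 on library totals, and those that rose from meiocyte to microspore from 7088 to 12681 without the filter on low counts. Downregulated core histone genes in *cmt3a* egg went from 5 to 9 on library totals, and in *cmt3b* zygote 1 in place of 0 was upregulated without WT replicate 2 or *cmt3b* replicate 1. For *cmt3b* egg against WT egg, leaving out each library gave 123 to 129 upregulated and 8 to 9 downregulated genes, and no filter on low counts gave 122 and 9. For *cmt3a* egg against WT egg the ranges were 47 to 49 and 73 to 77, and for *cmt3b* zygote against WT zygote 23 to 24 and 41 to 42. Among the 40 named genes no direction reversed in 2053 values of 207 called results, and 28 values in 13 results missed a limit.

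The same replicate numbers in different groups gave no sign of pairing: 0 of 17 correlations of same-numbered libraries were over 0.1 (-0.07 to 0.05). The correlations within a comparison depend on each other, and pairing is not excluded. With the replicate number as a block, 126 of the 200 genes were upregulated and 9 downregulated in *cmt3b* egg, 49 and 77 in *cmt3a* egg, 22 and 42 in *cmt3b* zygote, 145 and 16 from *cmt3b* egg to zygote, 16 and 141 in *cmt3a* against *cmt3b* egg, 17 and 40 in *cmt3b* meiocyte, and 27 and 140 from meiocyte to microspore. With 2 libraries per mutant egg and 1 sample of WT sperm, spread is poorly known there.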
